A study of Rattus norvegicus with 15 samples.

Results

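The livers of treadmill-exercised rats were compared with those of sedentary rats on a gap-matched diet, both on the first day of weight regain. The comparison takes the 10 libraries whose labels name these groups, 5 in each, out of 15 in the series. All rats were of the Wistar strain and had lost weight and kept it off before the study's refeeding period, and the labels place the collection of the livers at 24 hours of refeeding. The exercised group had run on a treadmill up to that period and was then fed ad libitum. The gap-matched group had stayed sedentary and was then given what the labels call an energy gap-matched diet, which they do not define. Exercise history and refeeding diet therefore both differ between the groups and cannot be told apart. The labels number the libraries but do not tie them to animals, so a p-value here reflects only how far these samples spread. The other 5 libraries, from sedentary rats fed ad libitum, entered the estimate of that spread and the choice of which genes were tested. They also entered the alternative scalings of the libraries.

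After a period of food restriction, the liver switches on refeeding from exporting glucose and oxidising fat to storing glycogen and making fatty acids and cholesterol. Insulin and sterol levels set the lipid genes through the SREBP transcription factors, and amino acid supply sets the transaminases and the urea cycle. Chaperones of the heat shock family keep proteins folded, and heat shock factor 1 drives their genes through repeated GAA and TTC units in the promoter.

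Levels are FPKM, fragments scaled to the transcript's length and to the mapped fragments of the library, and differences are exercised minus gap-matched of log2(FPKM + 1), each given ± its standard error. A gene was called where limma's Benjamini-Hochberg adjusted p over all 11216 tested genes was under 0.05. Of these genes 101 were called, which is 0.9%. The calls were 77 higher in exercised rats (0.687%) and 24 lower (0.214%), and 5 in each direction differed by more than 2-fold. The median difference over all tested genes was 0.04, and 57.8% of the differences were above 0. The groups did not overlap in 372 tested genes (3.32%), with exercised rats above in 255 (2.27%) and below in 117 (1.04%), and 93 of the 372 were called. The largest called differences were those of Hspb1, Got1, Hsph1, Nfil3 and Slc25a15 on the higher side, and of RGD1563482, RGD1566380, Insig1, Aacs and Sgk2 on the lower side. All of them but RGD1563482 are named in the plot of all tested genes. The RGD1563482 entry shares its symbol with a more abundant one, and its values are not reported here.

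**Figure D1:**
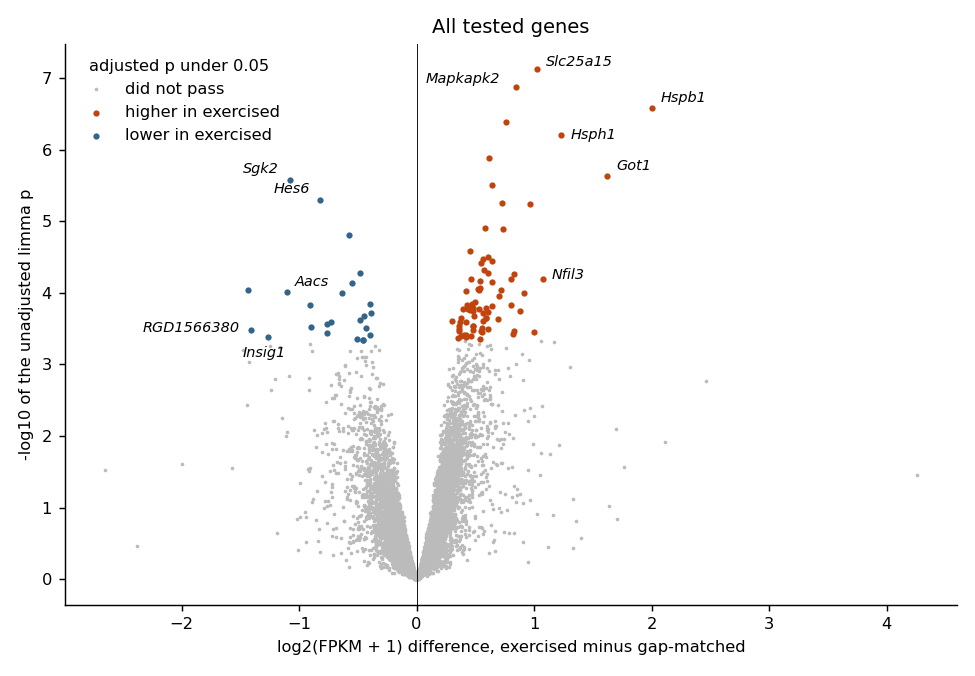
Each point is one tested gene, with the log2(FPKM + 1) difference between exercised and gap-matched rats on the x axis and the −log10 of the unadjusted limma p on the y axis. The 77 genes called higher lie on the right, led by Hspb1 at 2.0, and the 24 called lower on the left.

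The calls rested on all 10 libraries to different degrees. With 1 library left out, the count of 101 became 34, 20, 69, 22 and 131 without exercised libraries 1 to 5, and 99, 18, 69, 26 and 23 without gap-matched libraries 1 to 5. Exercised libraries 1, 2 and 4 and gap-matched libraries 2, 4 and 5 thus each took it down by more than 1.5-fold. A total of 15 genes were called in all 10 of these fits, among them Hspb1, Hsph1, Ahsa1, Got1, Slc25a15, Aldoa, Gabarapl1, Mapkapk2, Mbnl2, Rtn4rl1 and Them4 among the higher, and Sgk2, Hes6 and Usp1 among the lower. Of the 101 calls, 79 were lost in at least 5 of the 10 fits, and 0 changed sign in any fit that was run. For the 93 calls whose groups did not overlap, leaving out a library could not change the sign. A fit of only these 2 groups, without the third group in the spread, called 16 genes, and of the 15 it missed 2, among them Usp1. Outside the 15 it kept Stip1 and Otub2. Among the calls it lost were Fh, Hsp90ab1, Aacs, Nfil3, Dnajb2, Sqle, Esrra, Inhbc, Ahcy and Insig1. The direction of calls moved with the scaling of the libraries. Higher genes made up 76.2% of the calls in the deposited FPKM, 82.4% after scaling to the same sum, 59.8% after median-of-ratios scaling and 63.4% after quantile normalization. Of the 101 calls, 33 held after scaling to the same sum, 73 after median-of-ratios scaling and 79 after quantile normalization. Among the genes named here, median-of-ratios scaling ended the calls of Insig1, Dnaja4, Ahsa2, Ahcy, Etnppl, Taldo1, Txnrd1, Spata24 and Decr2. Scaling to the same sum ended those of Sqle, Soat2, Esrra, Dnajb4, Eif2ak3, Aqp9, Mrps10, Otub2, Tubb2a, RGD1566380, Plod1 and Atg4d. It also ended those of Insig1, Ahsa2, Etnppl, Taldo1, Spata24 and Decr2. Decr2 was picked after its values were seen.

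**Figure D2:**
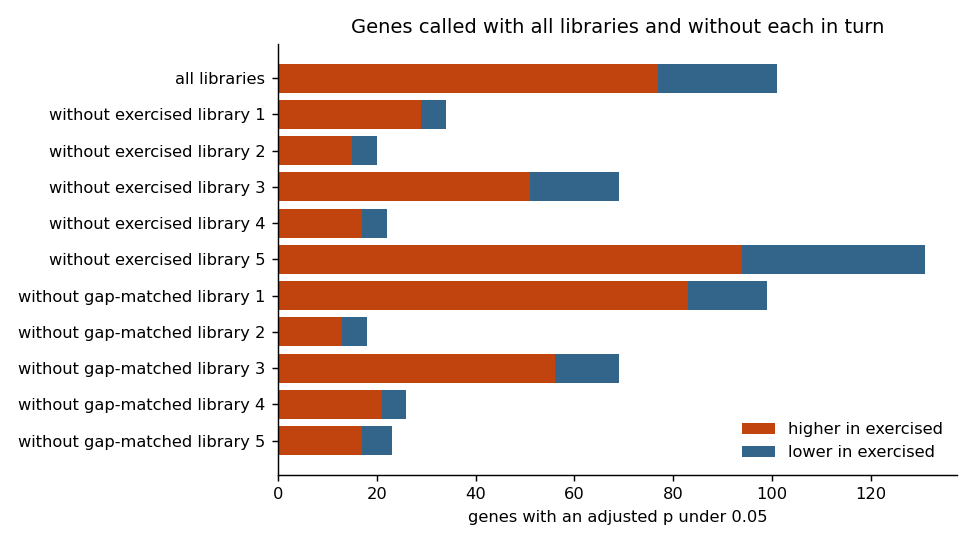
Bars give the number of genes with a limma adjusted p under 0.05, higher (orange) and lower (blue) in exercised rats, with all libraries and without each of the 10 in turn. The total runs from 18 without gap-matched library 2 to 131 without exercised library 5.

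**Figure D3:**
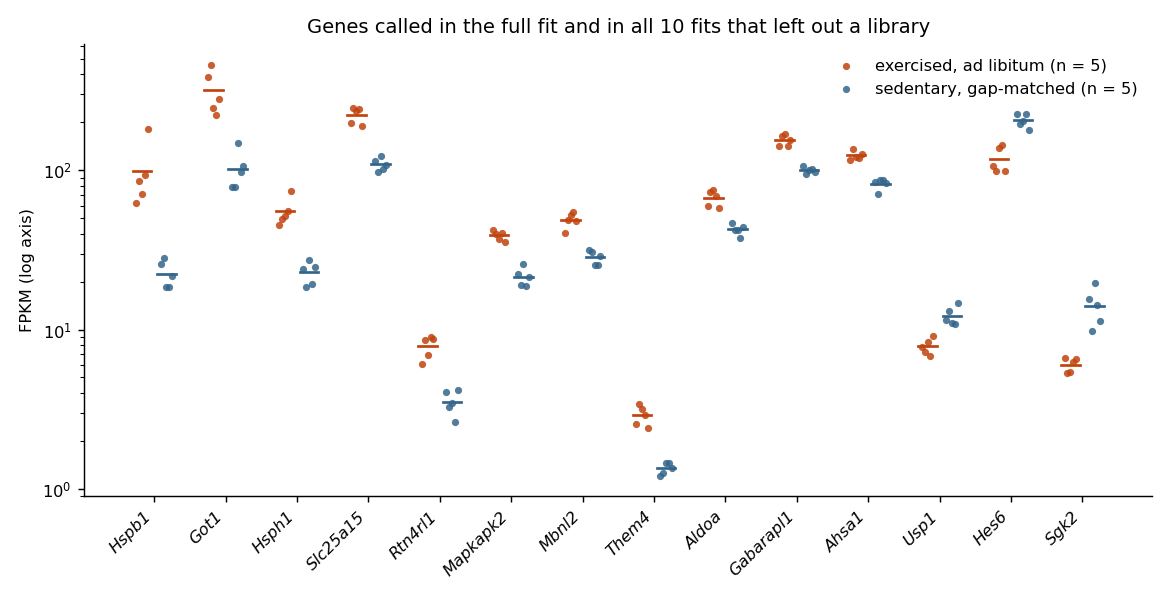
Points are the FPKM of single libraries on a log axis, and bars are group means, for 14 of the 15 genes called in every fit that left out a library. In each of these genes the 5 exercised libraries (orange) lie wholly above or wholly below the 5 gap-matched libraries (blue).

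The chaperone Hspb1 (Hsp27), a small heat shock protein that holds unfolding proteins and stabilises actin, had the largest difference among called genes. Its FPKM were 62.4, 86.0, 71.1, 93.7 and 181 in exercised libraries 1 to 5 and 25.7, 28.0, 18.5, 18.5 and 21.5 in gap-matched libraries 1 to 5. The groups did not overlap, and the lowest exercised library stood at more than 2 times the highest gap-matched one. Exercised library 5 was the highest. Hspb1 rose by 2.0 ± 0.24, from 22.5 ± 4.30 to 98.9 ± 47.6 FPKM (SD, n = 5; limma adjusted p = 0.000972). Without exercised library 5 the difference was 1.76 (limma adjusted p = 0.000433).

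Hsph1 (Hsp110), the exchange factor that lets Hsp70 release ADP, had 45.1, 49.1, 52.0, 55.4 and 74.2 FPKM in the exercised and 24.2, 18.5, 27.5, 19.3 and 24.6 in the gap-matched libraries. Every exercised library was above every gap-matched one. Hsph1 rose by 1.23 ± 0.16 (limma adjusted p = 0.00142), and by 1.12 without exercised library 5. Ahsa1, which activates the Hsp90 ATPase, had 117, 136, 121, 119.5 and 126 FPKM in the exercised and 84.5, 71.0, 87.1, 87.1 and 82.7 in the gap-matched libraries. It rose by 0.58 ± 0.09 (limma adjusted p = 0.0102), with a gap between the groups and a narrow spread within each. Gap-matched library 2 was its lowest library.

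The promoters of the chaperone genes are shown because heat shock factor 1 binds GAA and TTC units there. They are RefSeq sequences of the rat build GRCr8, from 250 bases before to 50 after the start of the gene, while the FPKM were made on Rnor_5.0. The search was for pairs of units, written GAANNTTC or TTCNNGAA, each of which reads the same on both strands, and the matched letters are in capitals. Of 33469 promoters of this length in the table, 15.9% held at least 1 pair. Hspb1 (chr12:26432252-26432551, minus strand) held 2 pairs, starting at bases 122 and 142. Hsph1 (chr12:10427118-10427417, plus strand) held 3, and its pairs at bases 215 and 220 share a unit, so that 3 alternating units stand in a row, an arrangement held by 0.798% of the promoters. Stip1 (chr1:213657605-213657904, minus strand) held 1, at base 243.
Hspb1: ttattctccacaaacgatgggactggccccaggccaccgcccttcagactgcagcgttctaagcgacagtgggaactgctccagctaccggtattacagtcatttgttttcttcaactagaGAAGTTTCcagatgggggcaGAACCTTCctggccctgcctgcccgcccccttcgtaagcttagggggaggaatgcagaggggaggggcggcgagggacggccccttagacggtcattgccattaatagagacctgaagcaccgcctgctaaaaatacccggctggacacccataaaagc
Hsph1: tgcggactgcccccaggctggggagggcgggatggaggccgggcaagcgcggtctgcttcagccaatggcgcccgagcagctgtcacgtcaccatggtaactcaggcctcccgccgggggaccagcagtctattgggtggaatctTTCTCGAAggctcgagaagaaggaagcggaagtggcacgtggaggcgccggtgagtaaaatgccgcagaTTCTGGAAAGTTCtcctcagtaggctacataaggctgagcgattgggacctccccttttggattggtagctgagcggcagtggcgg
Stip1: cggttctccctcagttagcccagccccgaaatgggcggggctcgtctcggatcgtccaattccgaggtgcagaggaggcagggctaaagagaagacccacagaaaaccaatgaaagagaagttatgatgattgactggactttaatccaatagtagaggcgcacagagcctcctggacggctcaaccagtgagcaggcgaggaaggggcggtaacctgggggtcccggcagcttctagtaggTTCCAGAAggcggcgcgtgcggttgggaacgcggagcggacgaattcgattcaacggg
The windows of Ahsa1, Ahsa2, Hsp90ab1, Dnaja4 and Dnajb2 held 0 pairs. The letters describe these windows only, and binding was not measured.

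Of 21 tested members of the heat shock list, 3 rose, 1 fell and the others did not pass, where 0.687% of all tested genes rose and 0.214% fell. The list's median was 0.12, against 0.04 over all tested genes. Like the other lists, this one was written with earlier results of these data known, so these shares describe it and test nothing. Hsp90ab1, the constitutive cytosolic Hsp90, had 604, 822, 646, 705 and 797 FPKM in the exercised and 522, 412, 406, 489 and 453 in the gap-matched libraries, with no overlap. It rose by 0.64 ± 0.11 (limma adjusted p = 0.021), but it did not pass in 4 of the 10 fits with 1 library fewer, where the adjusted p reached 0.0712. Dnajb4, a J-domain helper of Hsp70, fell by 0.45 ± 0.09, with mean FPKM of 13.2 ± 0.978 in gap-matched and 9.46 ± 1.17 in exercised rats (limma adjusted p = 0.0388), and failed to pass in 9 of the 10 fits, with p reaching 0.0979. The inducible Hsp90aa1 had a difference of 0.60 ± 0.27 (limma adjusted p = 0.284), with 183, 132, 251, 179 and 386 FPKM in the exercised and 115, 182, 93.7, 157 and 168 in the gap-matched libraries, which overlapped, and the difference was 0.39 without exercised library 5. Hspa8, the constitutive Hsp70, differed by −0.41 ± 0.15 and did not pass. It is listed at a few FPKM, and it and Hsp90ab1 have near-identical copies that can share reads, so both are uncertain. Hsp90aa1 and Hspa8 were picked after their values were seen.

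**Figure D4:**
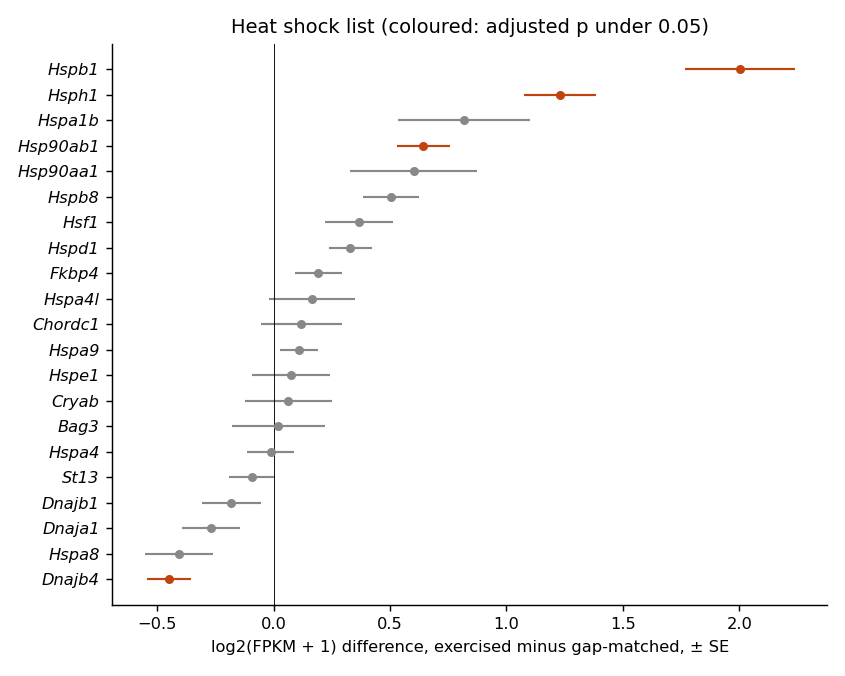
Points are log2(FPKM + 1) differences between exercised and gap-matched rats with standard errors for the 21 tested members of the heat shock list, and coloured points passed at a limma adjusted p under 0.05. Hspb1 and Hsph1 lie farthest to the right, Hsp90ab1 passed too, and Dnajb4 is the coloured point on the left.

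Further co-chaperones outside the list were called, and like Ahsa1 they were, apart from Dnaja4, picked after their values were seen. Stip1, which bridges Hsp70 and Hsp90, had 58.4, 72.0, 64.2, 64.4 and 79.9 FPKM in the exercised and 48.1, 41.4, 41.7, 42.3 and 46.7 in the gap-matched libraries. It rose by 0.60 ± 0.11 (limma adjusted p = 0.0206), though it no longer passed when exercised library 2 or gap-matched library 2 or 4 was dropped, with p at most 0.067. All 5 exercised libraries were above the gap-matched ones. The J-domain proteins Dnaja4 and Dnajb2 rose by 0.83 ± 0.18 and 0.55 ± 0.10, and Ahsa2, the paralog of Ahsa1, by 0.42 ± 0.09. Their limma adjusted p-values were 0.0451, 0.0217 and 0.0484, and the calls were lost in 8, 5 and 9 of the 10 fits. Dnaja4 had 9.45, 9.91, 12.5, 14.7 and 20.6 FPKM in the exercised libraries, with library 5 the highest as for Hspb1 and Hsph1, and its difference was 0.67 without that library (limma adjusted p = 0.0506). Mapkapk2, the kinase that phosphorylates Hspb1 downstream of p38, had 42.5, 39.7, 37.3, 40.4 and 35.6 FPKM in the exercised and 22.4, 19.0, 25.8, 18.7 and 21.3 in the gap-matched libraries. It rose by 0.84 ± 0.09 (limma adjusted p = 0.000749) and lies among the calls with the smallest p.

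Got1, the cytosolic aspartate aminotransferase of the malate-aspartate shuttle and of gluconeogenesis, had 383, 462, 245, 223 and 281 FPKM in the exercised and 78.4, 78.9, 149, 97.3 and 106 in the gap-matched libraries. The groups were apart, and the 2 highest libraries were exercised 1 and 2. Got1 rose by 1.62 ± 0.23 (limma adjusted p = 0.00369). Slc25a15, which carries ornithine into mitochondria for the urea cycle, had 197, 248, 237, 242 and 189.5 FPKM in the exercised and 114, 97.2, 123, 102 and 108 in the gap-matched libraries. Every exercised library was above every gap-matched one, and Slc25a15 rose by 1.02 ± 0.11 (limma adjusted p = 0.000749).

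Of 42 tested members of the amino acid breakdown and urea cycle list, 2 rose (Slc25a15 and Ahcy) and 0 fell. Among all tested genes 0.687% rose and 0.214% fell. The list's median was 0.23, with 34 members above 0, against 57.8% of all tested genes. Ahcy, which splits S-adenosylhomocysteine, rose by 0.54 ± 0.10, with mean FPKM of 463 ± 45.4 in gap-matched and 677 ± 93.9 in exercised rats (limma adjusted p = 0.0288), and was not called in 5 of the 10 fits nor after median-of-ratios scaling. Acmsd, which diverts tryptophan carbon from NAD synthesis, had 26.9, 37.0, 29.9, 32.3 and 28.2 FPKM in the exercised and 12, 9.81, 18.4, 23.2 and 11.1 in the gap-matched libraries, a difference of 1.06 ± 0.24 that narrowly missed the threshold (limma adjusted p = 0.0519, and 0.0471 without gap-matched library 4). Asl, argininosuccinate lyase of the urea cycle, differed by 0.60 ± 0.14 with no overlap (limma adjusted p = 0.0555). Gpt, alanine aminotransferase, differed by 1.07 ± 0.32 and overlapped between the groups (limma adjusted p = 0.123). Etnppl, which breaks down phosphoethanolamine and belongs to the aminotransferase family, rose by 1.0 ± 0.22 (limma adjusted p = 0.0454), and did not pass in 9 of the 10 fits.

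The calls among sterol genes were lower in exercised rats. Of 24 tested members of the list of cholesterol synthesis and uptake, 2 fell and 0 rose, and 22 had a difference below 0, with a median of −0.23. Between 20 and 23 members were below 0 under the 3 other scalings. Among all tested genes 0.214% fell and 0.687% rose, and 57.8% had a difference above 0 in the main fit. Insig1, the endoplasmic reticulum protein that holds back SREBP processing and is itself an SREBP target, had 164, 241, 66.5, 122 and 133 FPKM in the exercised and 276, 328, 403, 489 and 197 in the gap-matched libraries. The groups overlapped in exercised library 2 and gap-matched library 5. Insig1 fell by 1.27 ± 0.28 (limma adjusted p = 0.0484), a call that held in only 1 of the 10 fits, without exercised library 2, and its adjusted p reached 0.143 in the others. Sqle, squalene epoxidase, fell by 0.76 ± 0.16, with mean FPKM of 25.2 ± 4.78 in gap-matched and 14.6 ± 3.36 in exercised rats (limma adjusted p = 0.0418). Its groups overlapped too, with exercised library 4 at 18.7 and gap-matched library 5 at 17.2 FPKM. In the fits with 1 library fewer, the Sqle call held only without gap-matched library 5. Mvd and Msmo1, which act before and after squalene, differed by −0.66 and −0.64 with no overlap between groups and did not pass (limma adjusted p = 0.0916 and 0.0928). Soat2, which esterifies cholesterol, was also called lower, by 0.51 ± 0.11, just under the threshold and in 1 of the 10 fits, and was picked after its values were seen.

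Fatty acid synthesis gave 1 call. Of 19 tested lipogenesis members 1 fell and 0 rose, where 0.214% of all tested genes fell and 0.687% rose, with 9 above and 10 below 0 and a median of −0.01. The member was Aacs, acetoacetyl-CoA synthetase, which turns ketone bodies into lipid precursors. Aacs had 1.98, 5.2, 4.44, 6.30 and 4.42 FPKM in the exercised and 13.5, 12.8, 9.31, 9.69 and 7.19 in the gap-matched libraries. It fell by 1.10 ± 0.21 (limma adjusted p = 0.0288), with no overlap, and lost its call without exercised library 2 or gap-matched libraries 2 or 4, with the limma adjusted p reaching 0.0807. The Aacs call was also lost with no filter, and with only the 2 groups fitted (limma adjusted p = 0.0769 in the latter).

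The central lipogenic genes did not pass. Fasn, fatty acid synthase, had 278, 502, 387, 436 and 285 FPKM in the exercised and 249, 432, 493, 428 and 190.4 in the gap-matched libraries, which overlapped widely. Its difference was 0.13 ± 0.26, with a 95% interval of −0.43 to 0.68 (limma adjusted p = 0.843). Srebf1, the SREBP-1 gene, differed by −0.01 ± 0.16 (95% interval −0.35 to 0.32), and Acly, ATP citrate lyase, by −0.22 ± 0.21 (95% interval −0.66 to 0.21). All 3 intervals span 0. Acaca, acetyl-CoA carboxylase, differed by 0.47 ± 0.17 (95% interval 0.12 to 0.82). The desaturase Scd1 differed by 0.67 ± 0.22 (95% interval 0.20 to 1.13), with 4499 ± 767 against 2954 ± 1017 FPKM. Pnpla3, a lipid droplet protein, differed by −0.86 ± 0.31 (95% interval −1.52 to −0.20). Its gap-matched libraries at 152, 552, 562, 397 and 192 FPKM held both the highest values and ones within the exercised range of 140.4, 154, 213, 243 and 164. The intervals of Acaca, Scd1 and Pnpla3 do not span 0, but they are not adjusted for the number of genes tested. Their limma adjusted p-values were 0.182, 0.158 and 0.189.

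In central carbon metabolism single enzymes were called. Aldoa, the aldolase of glycolysis that predominates in muscle, had 59.9, 72.8, 75.5, 69.4 and 58.3 FPKM in the exercised and 46.7, 42.4, 42.1, 37.6 and 44.3 in the gap-matched libraries. The groups did not overlap, and Aldoa rose by 0.64 ± 0.09 (limma adjusted p = 0.00394). It was the 1 call among 14 tested glycolysis members, of which 11 were above 0. Over all tested genes 0.687% rose and 57.8% were above 0. Gckr, which holds glucokinase in the nucleus, differed by −0.56 ± 0.13 with every exercised library below the gap-matched ones (limma adjusted p = 0.059).

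Of 22 tested genes of the tricarboxylic acid cycle and pyruvate dehydrogenase 2 rose, with 19 above 0 and a median of 0.17. Over all tested genes 0.687% rose and 57.8% were above 0, with a median of 0.04. Fh, fumarase, had 192, 168, 172, 158 and 171 FPKM in the exercised and 133, 109, 134, 125 and 128 in the gap-matched libraries. It rose by 0.45 ± 0.08 (limma adjusted p = 0.0183), a call that ended without gap-matched library 2 (limma adjusted p = 0.0503). With only the 2 groups fitted, Fh did not pass either (limma adjusted p = 0.0653). Taldo1, transaldolase, was the 1 call of 8 pentose phosphate and NADPH genes, rising by 0.36 ± 0.08 (limma adjusted p = 0.0454), and held in 1 of the 10 fits.

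Of 18 tested gluconeogenesis genes 1 rose, Got1, and 16 were above 0, with a median of 0.25. Over all tested genes 0.687% rose and 57.8% were above 0. Pck1, the rate-limiting carboxykinase, had 1494, 1417, 374, 954 and 825 FPKM in the exercised and 458, 672, 401, 302 and 983 in the gap-matched libraries and overlapped widely. Its difference was 0.82 ± 0.42 (limma adjusted p = 0.351). Of 34 tested fatty acid oxidation genes 0 passed and 28 were above 0, with a median of 0.18. Acot2, a mitochondrial acyl-CoA thioesterase, came nearest, with a difference of 0.42 ± 0.09 and no overlap (limma adjusted p = 0.0509, and 0.0499 without exercised library 5). Cpt1a, the gate of fatty acid entry into mitochondria, differed by 0.53 ± 0.27, and exercised library 4 was its highest at 126 FPKM (limma adjusted p = 0.34).

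**Figure D5:**
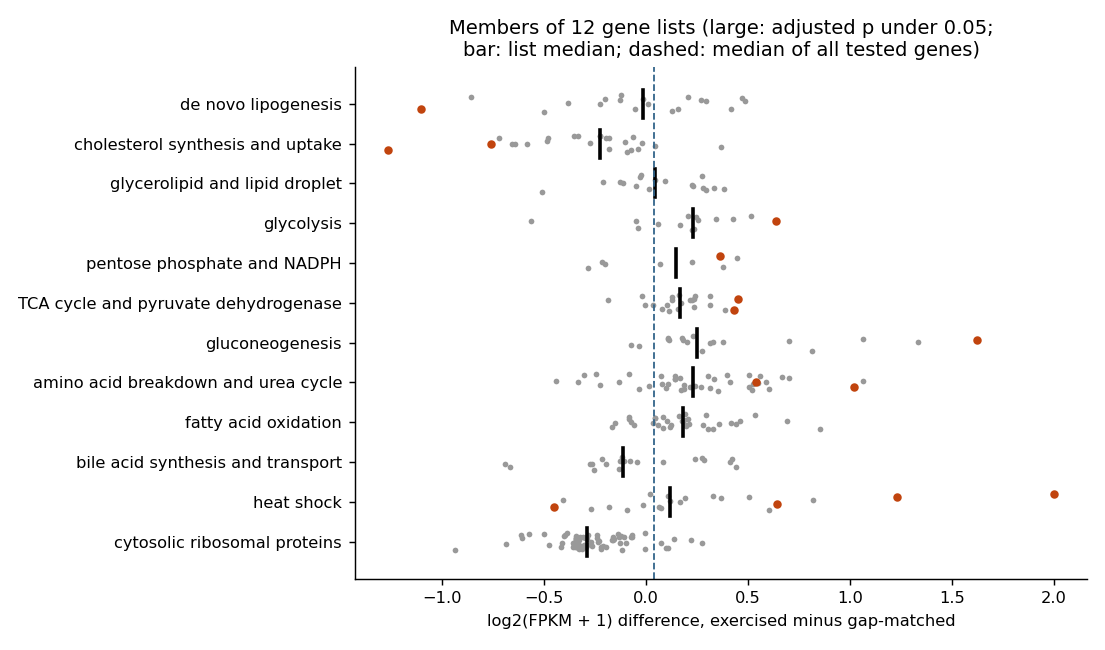
Points are the log2(FPKM + 1) differences of the tested members of 12 gene lists, and large orange points passed at a limma adjusted p under 0.05. Black bars are list medians and the dashed line is the median of all tested genes, 0.04, and the cholesterol and ribosomal medians lie to its left at −0.23 and −0.29.

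Transcription factors of the clock and of energy metabolism were called. Nfil3, a repressor at the D-box elements that Dbp activates, had 50.4, 36.2, 28.1, 24.3 and 37.5 FPKM in the exercised and 13.5, 16.5, 21.6, 10.9 and 18.2 in the gap-matched libraries. Its groups did not overlap. Nfil3 rose by 1.08 ± 0.20 (limma adjusted p = 0.0267) and lost its call in 5 of the 10 fits. Of 20 tested clock genes, 2 rose and 0 fell, with 11 above and 9 below 0. Among all tested genes 0.687% rose and 0.214% fell. Nr1d1, a repressor in the clock, differed by −0.61 ± 0.26 (limma adjusted p = 0.246). Esrra, the estrogen-related receptor of mitochondrial genes, rose by 0.46 ± 0.09 (limma adjusted p = 0.0267), and was not called in 5 of the 10 fits. It was the 1 call of 27 tested hepatocyte transcription factors. Hes6, a basic helix-loop-helix regulator, had 106, 99.2, 139, 144 and 98.6 FPKM in the exercised and 227, 194, 203, 225 and 179 in the gap-matched libraries. It fell by 0.82 ± 0.12 (limma adjusted p = 0.00542) with a clear gap between the groups.

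A kinase and a secreted factor fell. Sgk2, a relative of Akt in the serum and glucocorticoid regulated kinase family, had 6.64, 5.36, 5.38, 6.22 and 6.52 FPKM in the exercised and 15.6, 9.76, 19.7, 14.3 and 11.4 in the gap-matched libraries. The exercised values lay close together and below every gap-matched one. Sgk2 fell by 1.08 ± 0.15 (limma adjusted p = 0.00371) and was the 1 call of 19 tested insulin signalling genes, where 0.214% of all tested genes fell. Inhbc, the activin C subunit made by the liver, fell by 0.64 ± 0.12, with mean FPKM of 58.0 ± 4.58 in gap-matched and 37.5 ± 7.49 in exercised rats (limma adjusted p = 0.0288), and did not pass in 7 of the 10 fits. Hamp, the iron hormone hepcidin, had 1966, 1944, 2143, 1936 and 2304 FPKM in the exercised and 2705, 5205, 2523, 3294 and 7506 in the gap-matched libraries. The groups did not overlap, the gap-matched values spread over a far wider range, and the difference of −0.92 ± 0.25 did not pass (limma adjusted p = 0.096).

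The growth hormone targets Cish and Socs2 varied widely within groups. Cish, which inhibits STAT5 signalling, had 23.7, 20.4, 56.8, 5.01 and 19.9 FPKM in the exercised and 1.71, 21.6, 6.38, 1.39 and 1.32 in the gap-matched libraries. All but 1 gap-matched library were under 7 FPKM and all but 1 exercised library at or above 19.9 FPKM. Its difference of 2.12 ± 0.75 did not pass (limma adjusted p = 0.182), and that of Socs2 was 1.22 ± 0.44 (limma adjusted p = 0.185). Of 18 tested members of this list 0 passed, against 0.9% of all tested genes. Igf1, the hormone that growth hormone draws from the liver, differed by −0.26 ± 0.12.

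Protein turnover and redox genes gave single calls, where 0.687% of all tested genes rose and 0.214% fell. Gabarapl1, an Atg8 protein of the autophagosome, had 143, 164, 169, 143 and 155 FPKM in the exercised and 107, 95.3, 101, 102 and 98.0 in the gap-matched libraries. It rose by 0.61 ± 0.08 (limma adjusted p = 0.00246) without overlap and was the 1 call of 25 tested autophagy genes. Map1lc3b, another Atg8 protein, differed by 0.48 ± 0.13 and did not pass (limma adjusted p = 0.0854). Atg4d, a protease of the Atg8 proteins that was picked after its values were seen, rose by 0.40 ± 0.08, with 7 of the 10 fits losing it. Txnrd1, thioredoxin reductase, rose by 0.42 ± 0.09 and was the 1 call of 16 antioxidant genes, held in 1 of the 10 fits. The deubiquitinase Usp1 fell by 0.57 ± 0.09, with mean FPKM of 12.2 ± 1.63 in gap-matched and 7.87 ± 0.936 in exercised rats (limma adjusted p = 0.0118), and Otub2, of another deubiquitinase family, by 0.72 ± 0.16, a call that held in 1 of the 10 fits.

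Mbnl2, a splicing regulator picked after its values were seen, rose by 0.76 ± 0.09 (limma adjusted p = 0.00116). Rtn4rl1, a relative of the Nogo receptor, rose by 0.97 ± 0.15, with mean FPKM of 3.52 ± 0.621 in gap-matched and 7.84 ± 1.28 in exercised rats (limma adjusted p = 0.00542). Them4, an acyl-CoA thioesterase that also binds Akt and was likewise picked afterwards, rose by 0.73 ± 0.11, with mean FPKM of 1.34 ± 0.108 in gap-matched and 2.89 ± 0.411 in exercised rats (limma adjusted p = 0.00542). Neither of these low genes overlapped between groups, and the scale understates their fold.

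Others of the largest calls lost significance more often. Mrps10, of the mitochondrial ribosome, fell by 0.91 ± 0.18, with 6 of the 10 calls lost. Its groups overlapped, with exercised library 3 at 11.7 and gap-matched library 2 at 10.6 FPKM. The tubulin Tubb2a, whose close copies make it uncertain, fell by 0.90 ± 0.20, with 8 lost. Spata24 fell by 0.77 ± 0.17 and the locus named RGD1566380 by 1.41 ± 0.31, at levels of 3.41 ± 1.04 and 7.67 ± 1.56 FPKM in the gap-matched group and with 8 and 9 calls lost. The groups overlapped in Spata24 but not in RGD1566380. Samd1, which binds CpG islands, rose by 0.80 ± 0.16, with 6 lost. Genes called and picked after their values were seen included the kinase of the unfolded protein response Eif2ak3 (PERK), which fell by 0.48 ± 0.09, and the glycerol channel Aqp9, which fell by 0.39 ± 0.08. The collagen hydroxylases P4ha1 and Plod1 rose by 0.57 ± 0.10 and 0.54 ± 0.10. These 4 calls were lost in 4, 7, 3 and 6 of the 10 fits in that order.

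Several lists had 0 calls, where 0.9% of all tested genes were called and 57.8% were above 0. Of 69 tested cytosolic ribosomal protein genes 63 were below 0, with a median of −0.29, and between 61 and 63 were below 0 under the other scalings. The summed FPKM of the list ran from 18936 to 33474 in exercised and from 21382 to 32981 in gap-matched libraries and overlapped, and many of these genes have near-identical copies. Of 18 cell cycle genes 14 were below 0, among them the replication helicase subunit Mcm2 at −0.62 ± 0.21 (limma adjusted p = 0.162). Among 20 bile acid genes 13 were below 0, with the carrier Slco1a4 at −0.67 ± 0.17 (limma adjusted p = 0.0795). Among 14 genes of the glucocorticoid response Zbtb16, a zinc finger factor, had 1.96, 6.61, 1.22, 0.955 and 0.655 FPKM in the exercised and 4.69, 5.47, 8.03, 10.01 and 5.22 in the gap-matched libraries. Exercised library 2 alone reached the gap-matched range, and the difference of −1.43 ± 0.35 did not pass (limma adjusted p = 0.0707). Without that library it was −1.79 and passed (limma adjusted p = 0.00955).

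Markers of other cells were read alongside all tested genes, of which 0.9% were called and 57.8% were above 0. In bulk liver, fewer cells of a type and less RNA per cell cannot be told apart. The 11 tested hepatocyte markers had summed levels of 52692 to 66135 FPKM in exercised and 57292 to 62290 FPKM in gap-matched libraries and 0 calls, so the tissue label matches its markers. Periportal markers, among them urea cycle enzymes that the amino acid list also holds, had a median of 0.40 with 0 of 15 called and 11 above 0, and sums of 10285 to 16297 against 8860 to 11278 FPKM. All 4 tested erythroid markers, globins with close copies, were below 0 with a median of −0.51 and 0 called, and their sums ran from 917 to 1738 in exercised and from 1529 to 2302 FPKM in gap-matched libraries. Of 15 endothelial markers 14 were above 0 and 0 called, and the sums overlapped at 194 to 263 and 183 to 263 FPKM. Of the neutrophil markers Mpo, Elane and Camp were listed at 0 in all libraries, and the sum of the list ran from 1.53 to 14.3 FPKM in exercised and from 3.41 to 14.6 FPKM in gap-matched libraries. Of 8 skeletal muscle markers 0 reached the level tested, with a sum under 2 FPKM in each library. The part of these cells in the results above was not tested.

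Depth relative to exercised library 1, from genes that step by single fragments, was 1.11 ± 0.088 in exercised and 1.08 ± 0.078 in gap-matched libraries (SD, n = 5; exact permutation test over 252 splits, two-sided p = 0.563). The number of genes at 1 FPKM or more was 10859 to 11000 per library. Summed FPKM of the values present was 911546 in exercised library 5 and ran from 731954 to 813835 in the others. Log2 values correlated at 0.967 to 0.984 across genes within a group and at 0.963 to 0.982 between groups, where genes are not independent replicates. Alb, the main plasma protein of the liver, had a value in 1 exercised and 0 gap-matched libraries and was not tested. Slc27a2, a fatty acid transport protein and acyl-CoA synthetase, had 502 ± 48.2 FPKM in 5 exercised and 457 ± 59.0 in 4 gap-matched libraries.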

How the data were processed

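RNA-seq of rat liver gave 15 libraries, in 3 groups of 5 by the labels. The deposited values were FPKM per Ensembl gene, made by the authors with Trimmomatic and Cufflinks on Rnor_5.0, per the submitters' processing notes. The aligner, versions and annotation are not given in the sources used here. The absolute depth is unknown, since read totals were not used here, and counting intervals are not given.

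There were 26407 entries, 2 of them repeats of an identifier. Names were lacking for 5795 genes and had become dates for 27, and 737 entries gave way to a more abundant one of the same symbol. Near-identical copies can share reads. A placeholder number marked missing values in 2 genes, which were not tested.

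Genes averaging 1 FPKM or more over 15 libraries were analysed as log2(FPKM + 1), which understates the fold of low genes, without further scaling. One limma 3.58.1 fit (R 4.3.3) covered the 3 groups, with a mean trend, two-sided, with Benjamini-Hochberg adjustment and a threshold of 0.05, and the fit was tested on simulated data. Python 3.11.15, numpy 2.4.6, pandas 2.3.3, scipy 1.17.1 and matplotlib 3.10.9 were used. Relative depth was the commonest ratio of values of genes under 0.3 FPKM, in log2 bins of 0.04.

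Members and lists were chosen with earlier results of these data known. Named genes were the 12 largest calls in each direction, in each of 47 lists at most 4 members of smallest p, and a panel of lipid, glucose and hormone genes; the text gives those of most interest, some called genes are not reported here, and other names are marked as picked after their values were seen. Alternatives were other pseudocounts, filters, scalings, thresholds and fits, each library left out, and the replicate number as a block. Same-numbered libraries had correlations of their deviations from −0.23 to 0.08, with 0 pairs over 0.1, so the numbers were not taken to pair the libraries. Promoters were matched by symbol, and 76 of the 101 called genes had an entry.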

Additional observations from a re-analysis of the deposited data

Results flagged for a closer look

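In 31 of 452 group and gene combinations tested, the highest or lowest of 5 libraries stood far from the other 4 by Dixon's criterion, which chance meets in about 1 in 20. Levels are FPKM, with the range of the other 4 libraries of the group after each.

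Exercised library 5 stood apart in 7 genes. It was high in Hspb1 (181 against 62.4 to 93.7), the acute phase protein Lcn2 (22.3 against 2.70 to 4.34), the neutrophil protein S100a9 (8.73 against 0.767 to 2.69), the lysozyme Lyz2 (67.1 against 21.6 to 30.1) and the fatty acid binding protein Fabp4 (14.0 against 3.79 to 5.63). It was low in the heme enzyme Alad (91.1 against 105 to 108) and in Lars (11.6 against 13.5 to 13.8).

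Other exercised libraries stood apart in 7 genes. Library 2 was high in Zbtb16 (6.61 against 0.655 to 1.96) and Atg4b (14.1 against 8.69 to 9.65). Library 3 was high in Mrps10 (11.7 against 7.77 to 8.26) and Gadd45a (70.4 against 19.7 to 31.4) and low in Cd4 (5.27 against 8.91 to 10.1). Library 1 was low in Pdia4 (144 against 189 to 195), and library 4 was high in Sgk1 (23.0 against 7.80 to 10.3).

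Gap-matched library 1 was high in the co-chaperone Dnajb2 (43.8 against 31.9 to 33.9), the sterol oxidase Msmo1 (145 against 75.8 to 84.9), the clock factor Dbp (284 against 166 to 199.7), and the endothelial genes Flt1 (4.77 against 2.63 to 3.23) and Eng (47.2 against 33.4 to 36.4). It was low in Txnrd1 (30.2 against 34.9 to 35.9) and Ftl (3.43 against 5.29 to 5.69).

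Gap-matched library 2 was low in Ahsa1 (71.0 against 82.7 to 87.1) and Idh1 (228 against 258 to 269) and high in Cish (21.6 against 1.32 to 6.38). Library 3 was high in Srebf1 (384 against 189.5 to 237) and Apoa4 (1433 against 763 to 892) and low in Aqp9 (154 against 172 to 175). Library 4 was high in Ahcy (544 against 435 to 453). Library 5 was high in Decr2 (46.6 against 39.0 to 41.1), Cyp2b1 (4.92 against 1.33 to 2.20) and Myc (17.6 against 7.19 to 8.03).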

How the results depend on the processing

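The count of 101 called genes (77 higher, 24 lower) became 53 (42 and 11) with no filter, 34 (28 and 6) with libraries scaled to the same sum, 16 (12 and 4) with only the 2 groups fitted, and 272 (200 and 72) at an adjusted p under 0.1. It was 87 and 93 after median-of-ratios scaling and quantile normalization, 98 and 100 with pseudocounts of 0.1 and 0.5, 112 with a filter at 5 FPKM, 79 with library weights and 74 with no mean trend. The replicate block was fitted to the 2 groups only, where 16 genes passed without the block. With the block 0 genes passed in limma in either direction, and 1229 had an unadjusted p under 0.05. In the check of pairing, 1 of 10 libraries correlated best with its own number. Without each library in turn the count ran from 18 to 131, with 13 to 94 higher and 5 to 37 lower. The filter, threshold and library changes alter how many genes or samples are tested, and for the scalings the cause was not tested. The difference in relative depth of 0.0307 was −0.0185 (1.09 against 1.11, exact permutation p = 0.706) from genes under 1 FPKM. Limits are 5 libraries a group, diet and exercise that move together, unknown read totals, shared reads between gene copies, and an estimate of the spread that draws on the sedentary ad libitum libraries.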

Other observations

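Several genes that liver is known to express strongly were listed at exactly 0 in all 15 libraries. They include Otc of the urea cycle, the glycolytic Pgk1, the pyruvate dehydrogenase subunit Pdha1, the coagulation factor F9, and Lamp2 of the lysosome. By symbol, 15521 named genes matched a single protein-coding gene of RefSeq GRCr8, and 551 of these lie on chromosome X there. Of the 551 genes, 486 (88.2%) were listed at 0 in every library, against 7.75% to 18.3% of the genes of the 20 autosomes. The other 65, among them Nsdhl and Rps4x, had a value above 0 in at least 1 library. Genes at 0 in all libraries could not be tested, so the urea cycle, glycolysis, pyruvate dehydrogenase and autophagy lists lack these members. The cause was not tested.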
